A study of Mus musculus with 24 samples.

Results

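The bone marrow was examined for 10 genes that mark or maintain haematopoietic stem and progenitor cells. They are Kit, Cd34, Flt3, Gata2, Meis1, Mecom, Hlf, Procr, Myb and Hoxa9. They were chosen by name, as genes known from this compartment, out of the 54752 genes in the table, with earlier results of these data known. All 10 were found in it. The RNA came from bone marrow cells of 24 male mice in a C57BL/6 background, 6 in each of 4 groups, with a library per mouse and no pooling. GC-WT and GC-KO mice were wild-type and Nrf2-knockout ground controls. FL-WT and FL-KO mice of the same genotypes spent 31 days in space, singly caged like the controls, and were sampled after landing. The flight mice were 8 weeks old when they were transported, 3 weeks before launch, and the ages at sampling are not given in the sources used here. The cells were taken from the right pelvis and tibia, cryopreserved, and lysed for RNA without sorting. Flight mice were dissected in the United States and ground mice in Japan, so site, handling and flight cannot be told apart in any comparison of FL with GC mice.

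All blood cells descend from a small pool of stem cells in the marrow, which is kept quiescent by a network of transcription factors and is fed by signals from stromal cells. Stem and early progenitor cells carry the receptor tyrosine kinase KIT, and lymphoid-primed multipotent progenitors also carry FLT3. These receptors bind stem cell factor and FLT3 ligand and drive survival and expansion. Several of these genes are also active outside the stem cell compartment: Kit and Gata2 in mast cells, Flt3 in dendritic cells, Cd34 and Procr in endothelium, and Myb in dividing erythroid, myeloid and lymphoid progenitors.

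Expression was given in TPM, a gene's share of all transcripts after its reads are divided by its length, so levels of different genes can be set side by side. Read counts were not used here, so the depth of each library is unknown and no counting error can be given. Between 35.4% and 59.6% of all TPM in a library belonged to 5 structural small RNAs. Markers of the expected marrow lineages were present in every library, the 10 neutrophil markers summing to between 29789.7 and 67242.9 TPM and the 10 erythroid markers to between 425 and 1702 TPM. Nfe2l2, the gene of Nrf2, lay between 2.22 and 7.18 TPM in the 12 knockout mice and between 11.4 and 27.3 TPM in the 12 wild-type mice, without overlap. Which exons the knockout removes is not given in the sources used here. Most genes were slightly lower in FL than in GC mice and in knockout than in wild-type mice. The median log2 fold change was -0.24 and -0.29 for flight against ground in wild-type and knockout mice, and -0.22 and -0.25 for knockout against wild-type mice on the ground and after flight, over the 12373 genes tested. Changes of the 10 genes are therefore also given relative to these medians.

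In whole marrow the 10 genes were expressed at low levels and in a wide range. Myb, the transcription factor of dividing progenitors, was the highest with a mean of 16.0 TPM over the 24 mice, followed by Cd34 with 4.09, Kit with 2.76, Gata2 with 2.08, Flt3 with 1.57 and Meis1 with 0.997 TPM. Hoxa9, Hlf, Mecom and Procr never exceeded 1 TPM in any mouse. None of the 10 was listed at 0 in any library. The 10 genes together summed to 41.9 ± 7.33 TPM (SD, n = 6) in GC-WT mice, 30.8 ± 10.4 TPM in FL-WT mice, 24.3 ± 7.38 TPM in GC-KO mice and 16.8 ± 2.44 TPM in FL-KO mice, most of it Myb. In the plot of TPM by mouse, Kit, Cd34, Flt3, Gata2, Hlf and Myb had group means in that descending order, and for each of them the ranges of FL-WT and GC-KO mice overlapped. Because these are whole marrow samples, fewer stem and progenitor cells and less RNA per cell cannot be told apart in any of the differences reported. As a share of all transcripts, each value in TPM also depends on the levels of all other genes.

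**Figure D1:**
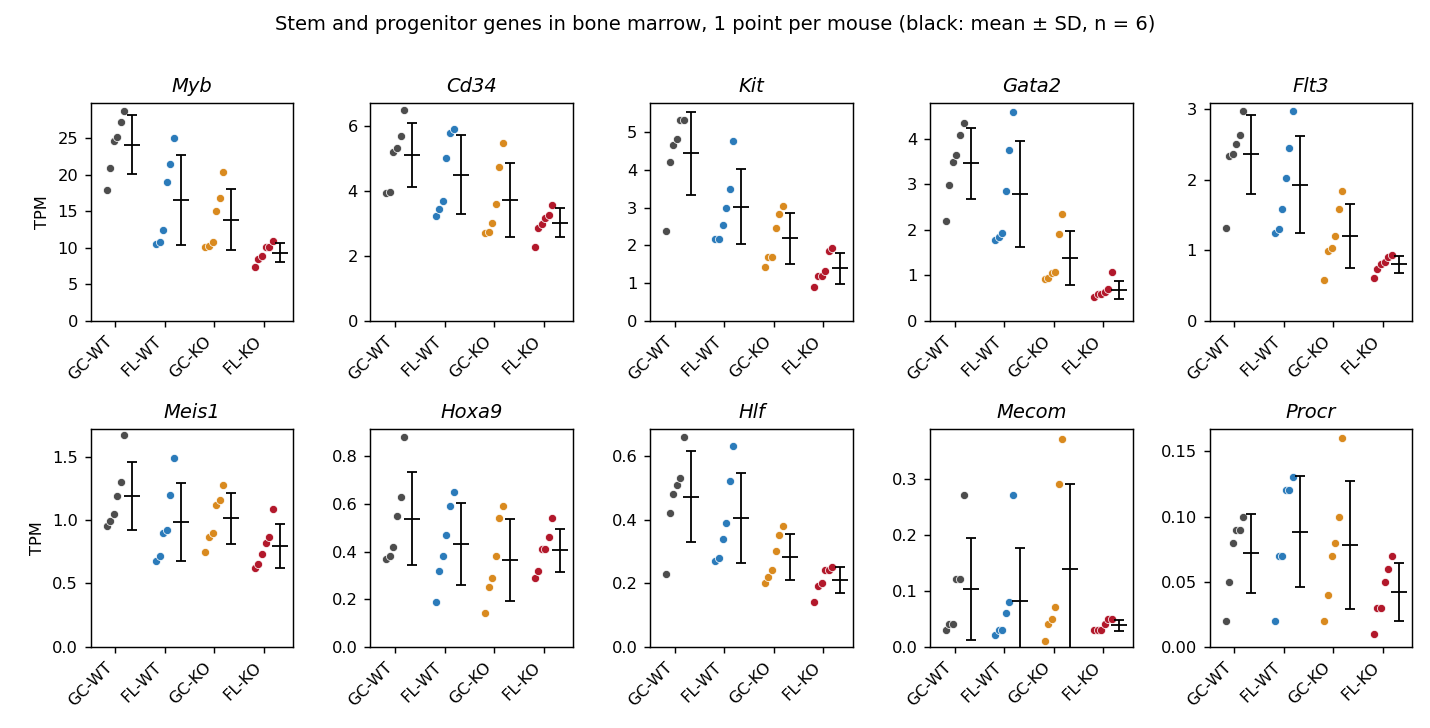
Expression of each of the 10 genes in TPM (vertical axes, each from 0, each with its own scale) in the 4 groups of mice, with a point for each mouse and the mean ± SD of 6 mice in black (bars reaching below 0 are clipped). FL-KO mice lie below every FL-WT mouse for Kit, Gata2, Flt3 and Hlf, whereas the 4 groups of Meis1, Hoxa9, Mecom and Procr overlap.

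Among the surface receptors, Kit and Flt3 were lower in knockout than in wild-type mice both on the ground and after flight. Kit (ENSMUSG00000005672.12, GRCm38 chr5:75574916-75656722, plus strand) encodes the receptor of stem cell factor. Its lowest, median and highest values were 2.37, 4.73 and 5.32 TPM in GC-WT mice, 2.17, 2.77 and 4.76 TPM in FL-WT mice, 1.43, 2.08 and 3.05 TPM in GC-KO mice, and 0.89, 1.26 and 1.93 TPM in FL-KO mice. The 6 FL-KO mice were all below the 6 FL-WT mice, whereas on the ground a single GC-WT mouse, at 2.37 TPM, lay within the range of the GC-KO mice and the other 5 lay above it. Flt3 (ENSMUSG00000042817.15, chr5:147330741-147400489, minus strand) encodes the receptor of FLT3 ligand and marks multipotent, lymphoid-primed and dendritic progenitors. The values of Flt3 were, from lowest over median to highest, 1.32, 2.44 and 2.97 TPM in GC-WT mice, 1.25, 1.81 and 2.97 TPM in FL-WT mice, 0.58, 1.12 and 1.84 TPM in GC-KO mice, and 0.61, 0.815 and 0.93 TPM in FL-KO mice. All FL-KO mice were again below all FL-WT mice, and 5 of 6 GC-WT mice were above the highest GC-KO mouse.

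The other surface markers differed less. Cd34 (ENSMUSG00000016494.9, chr1:194938819-194961279, plus strand) encodes a sialomucin of progenitor and endothelial surfaces. From lowest over median to highest, Cd34 had 3.95, 5.26 and 6.50 TPM in GC-WT mice, 3.23, 4.34 and 5.90 TPM in FL-WT mice, 2.71, 3.31 and 5.48 TPM in GC-KO mice, and 2.28, 3.08 and 3.58 TPM in FL-KO mice. Neighbouring groups overlapped in every comparison. Procr (ENSMUSG00000027611.12, chr2:155751117-155755471, plus strand) encodes the endothelial protein C receptor, a surface marker of the most primitive stem cells, and lay between 0.01 and 0.16 TPM in the 24 mice. Its group means were 0.0717 ± 0.0306 TPM in GC-WT, 0.0883 ± 0.0426 TPM in FL-WT, 0.0783 ± 0.0492 TPM in GC-KO and 0.0417 ± 0.0223 TPM in FL-KO mice (SD, n = 6). The 4 groups overlapped, and at 2 decimals its values are only a few steps of the table apart.

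Gata2 differed most between the genotypes among the 6 tested genes in the TPM as deposited, though less than Myb and Kit once the trend on GC content and length was removed. Gata2 (ENSMUSG00000015053.14, chr6:88193891-88207032, plus strand) encodes a zinc finger transcription factor that stem cells need for their survival and that remains active in the mast cell and basophil lineage. Its lowest, median and highest values were 2.20, 3.57 and 4.34 TPM in GC-WT mice, 1.78, 2.40 and 4.58 TPM in FL-WT mice, 0.93, 1.07 and 2.34 TPM in GC-KO mice, and 0.52, 0.605 and 1.07 TPM in FL-KO mice. The FL-KO mean of 0.68 ± 0.200 TPM was 0.244 of the FL-WT mean of 2.79 ± 1.16 TPM, and the groups did not overlap. On the ground the GC-KO mean was 0.398 of the GC-WT mean, with 1 GC-KO mouse, at 2.34 TPM, reaching into the range of the GC-WT mice.

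Myb (ENSMUSG00000019982.15, chr10:21124935-21160984, minus strand) encodes the transcription factor c-Myb, which dividing progenitors of most lineages require. It was lower both in knockout mice and after flight. The lowest, median and highest values of Myb were 17.97, 24.9 and 28.8 TPM in GC-WT mice, 10.5, 15.8 and 25.1 TPM in FL-WT mice, 10.1, 12.9 and 20.4 TPM in GC-KO mice, and 7.35, 9.57 and 11 TPM in FL-KO mice. In each genotype comparison 5 of 6 knockout mice were below every wild-type mouse, and in each flight comparison 3 of 6 flight mice were below every ground mouse.

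The homeobox pair Meis1 and Hoxa9 showed small differences. Meis1 (ENSMUSG00000020160.18, chr11:18879817-19018985, minus strand) encodes a TALE homeobox protein that binds DNA together with HOX proteins and helps to keep stem cells quiescent. Its lowest, median and highest values were 0.95, 1.12 and 1.67 TPM in GC-WT mice, 0.68, 0.91 and 1.49 TPM in FL-WT mice, 0.75, 1.01 and 1.28 TPM in GC-KO mice, and 0.62, 0.775 and 1.09 TPM in FL-KO mice. Every pair of groups overlapped. Hoxa9 (ENSMUSG00000038227.15, chr6:52223100-52231089, minus strand), its HOX partner in progenitor cells, had group means of 0.538 ± 0.196 TPM in GC-WT mice, 0.433 ± 0.172 TPM in FL-WT mice, 0.365 ± 0.174 TPM in GC-KO mice and 0.405 ± 0.0914 TPM in FL-KO mice (SD, n = 6). None of its 4 comparisons reached 0.05 in a permutation test on rank sums (exact, two-sided), the lowest p being 0.145 for GC-KO vs. GC-WT.

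Hlf and Mecom, transcription factors whose expression is concentrated in the stem cells themselves, were near the limit of the table. Hlf (ENSMUSG00000003949.16, chr11:90336536-90390895, minus strand) encodes a PAR basic leucine zipper factor. Its lowest, median and highest values were 0.23, 0.495 and 0.66 TPM in GC-WT mice, 0.27, 0.365 and 0.63 TPM in FL-WT mice, 0.20, 0.27 and 0.38 TPM in GC-KO mice, and 0.14, 0.22 and 0.25 TPM in FL-KO mice. All FL-KO mice were below all FL-WT mice. The exact test on rank sums gave p = 0.00216 after flight, the smallest that 6 mice against 6 allow, and p = 0.026 on the ground. Mecom (ENSMUSG00000027684.16, chr3:29951296-30548008, minus strand) encodes the zinc finger protein EVI1 and its longer form, and lay between 0.01 and 0.37 TPM. Its group means were 0.103 ± 0.0914 TPM in GC-WT, 0.0817 ± 0.0950 TPM in FL-WT, 0.138 ± 0.152 TPM in GC-KO and 0.0383 ± 0.00983 TPM in FL-KO mice (SD, n = 6). The 2 highest GC-KO mice had 0.29 and 0.37 TPM and the other 4 at most 0.07 TPM, and no exact p of Mecom was below 0.193.

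Some of these values can hold reads of overlapping genes. The libraries kept strand, but whether the counting used it is not given in the sources used here. In the GENCODE M21 annotation an antisense gene overlaps Cd34, Flt3 and Myb, 5 genes overlap Meis1 and 7 overlap Mecom, of which 2 each are antisense and the others lie on the same strand, and the microRNA gene Mir196b overlaps Hoxa9 on its own strand. Kit, Gata2, Hlf and Procr overlap no other gene.

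The bases just upstream of the transcribed regions are shown for the 4 of the 6 tested genes with the largest log2 fold changes between the genotypes and for Cd34, whose window holds matches to motifs searched. RefSeq (GRCm38.p6) gives a promoter window for all 10 genes. Each sequence runs 5′ to 3′ on the gene's own strand and stops before the first base that RefSeq or GENCODE places in a transcript. Capitals mark a match to TGACNNNGC, the core letters of the antioxidant response element that Nrf2 binds with small Maf proteins, or to TAACNG, a MYB motif.
Gata2, chr6:88193641-88193890: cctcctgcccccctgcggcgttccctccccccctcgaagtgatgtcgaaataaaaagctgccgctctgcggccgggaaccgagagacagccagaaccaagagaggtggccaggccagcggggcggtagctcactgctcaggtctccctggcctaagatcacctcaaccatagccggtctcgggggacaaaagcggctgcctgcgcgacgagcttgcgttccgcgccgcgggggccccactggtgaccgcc
Kit, chr5:75574737-75574915: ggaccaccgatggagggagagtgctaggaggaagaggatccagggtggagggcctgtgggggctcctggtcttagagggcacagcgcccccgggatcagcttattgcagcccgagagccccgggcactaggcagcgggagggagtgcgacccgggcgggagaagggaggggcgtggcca
Flt3, chr5:147400490-147400739: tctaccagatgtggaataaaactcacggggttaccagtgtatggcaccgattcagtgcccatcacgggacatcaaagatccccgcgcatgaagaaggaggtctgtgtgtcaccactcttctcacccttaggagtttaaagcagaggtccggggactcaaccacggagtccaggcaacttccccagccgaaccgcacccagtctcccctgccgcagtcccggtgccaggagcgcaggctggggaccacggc
Myb, chr10:21160985-21161234: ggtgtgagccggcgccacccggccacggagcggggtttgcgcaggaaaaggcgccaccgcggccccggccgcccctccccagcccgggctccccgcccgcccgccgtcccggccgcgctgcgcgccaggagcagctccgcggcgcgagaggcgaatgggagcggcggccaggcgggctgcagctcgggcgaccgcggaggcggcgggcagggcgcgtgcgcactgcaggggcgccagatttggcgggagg
Cd34, chr1:194938571-194938818: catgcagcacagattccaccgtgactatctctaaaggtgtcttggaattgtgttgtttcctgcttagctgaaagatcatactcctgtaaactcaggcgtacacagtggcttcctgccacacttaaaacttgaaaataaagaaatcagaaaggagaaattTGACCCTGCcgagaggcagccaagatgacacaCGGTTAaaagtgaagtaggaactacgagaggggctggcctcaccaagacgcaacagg
The 250 bases before the RefSeq start were searched on both strands for TGACNNNGC, TAACNG, the GATA motif AGATAA and the ETS motif CCGGAAGT. Of all 32851 mouse windows of this length, 10.2% hold the antioxidant response element core, 19.8% the MYB motif, 9.99% the GATA motif and 2.88% the ETS motif. Among the 10 genes the element core was present in Cd34, 91 bases before the start, and in Procr, 154 bases before it. The MYB motif was present in Cd34, 59 bases before the start, and in Meis1, 30 bases before it, and the ETS motif was present in Meis1, 13 bases before the start. The windows of Kit, Flt3, Gata2, Myb, Hlf, Mecom and Hoxa9 hold none of these letters. A match describes the letters and is not a binding site, and elements farther from the start were not searched.

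To ask what the loss of Nrf2 did to these genes on the ground, GC-KO mice were compared with GC-WT mice. Of the 10 genes, the 6 with a TPM above 1 in at least 1 library were tested by limma on log2(TPM + 1) over all 12373 such genes. DEGs were genes whose Benjamini-Hochberg adjusted p lay below 0.1 and whose change reached 2-fold on that scale, where adding 1 makes a change in a low gene look smaller. No member was a lower DEG in GC-KO vs. GC-WT, against 3.04% of all tested genes, while 5 of the 6 were lower by adjusted p alone, against 42.9% of all tested genes. Before adjustment 5 had p below 0.05, against 43.4% of all. On the log2 scale Gata2 was at -0.92 (SE 0.17, adjusted p = 0.000453), Myb at -0.79 (SE 0.19, adjusted p = 0.00228), Kit at -0.77 (SE 0.17, adjusted p = 0.00111), Flt3 at -0.61 (SE 0.15, adjusted p = 0.0023) and Cd34 at -0.39 (SE 0.15, adjusted p = 0.0451). Meis1 was at -0.12 (95% CI -0.35 to 0.11, adjusted p = 0.411). Relative to the median of all genes, Gata2 was at -0.70, Myb at -0.57, Kit at -0.55, Flt3 at -0.39, Cd34 at -0.17 and Meis1 at 0.10. The exact test on rank sums gave p = 0.00433 for Gata2 and for Myb, 0.00866 for Flt3, 0.0152 for Kit and 0.0649 for Cd34. None of the 10 genes had groups without overlap here, against 4.35% of all genes detected in at least 1 library.

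After flight the same genotypes were compared in FL-KO and FL-WT mice, which share no animal with the ground comparison. Gata2 fell by 1.13 on the log2 scale (SE 0.17, adjusted p = 9.05e-06). It was the only one of the 10 genes called a lower DEG, that is 1 of the 6 tested, against 8.36% of all tested genes. By adjusted p alone 5 of the 6 were lower, against 47.2%, and before adjustment 5, against 47.3%. Kit was at -0.73 on the log2 scale (SE 0.17, adjusted p = 0.00086), Myb at -0.70 (SE 0.19, adjusted p = 0.00395), Flt3 at -0.67 (SE 0.15, adjusted p = 0.000587) and Cd34 at -0.43 (SE 0.15, adjusted p = 0.0232). Meis1 was at -0.14 (95% CI -0.36 to 0.09, adjusted p = 0.349). The groups did not overlap for Kit, Flt3, Gata2 and Hlf, 4 of the 10 genes, against 9.62% of the 28248 genes detected in at least 1 library. Of these 28248 genes 12373 exceeded 1 TPM in at least 1 library, and the share without overlap among the 12373 was not computed in any comparison. The exact test on rank sums gave p = 0.00216 for each of Kit, Flt3, Gata2 and Hlf in the TPM as deposited. With median-of-ratios scaling Kit and Gata2 stayed separate. Flt3 then overlapped, with FL-WT mice from 1.15 and FL-KO mice up to 1.19 scaled TPM. Hlf met at the edge, at 0.3125 scaled TPM in both groups. The call of Gata2 was kept whichever of the 24 mice was left out, with log2 fold changes of -1.21 to -1.01. It was lost under 3 other scalings, where the log2 fold change was -0.94 with median-of-ratios scaling, -0.87 with quantile normalisation and -0.34 with the trend on GC content and length removed.

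**Figure D2:**
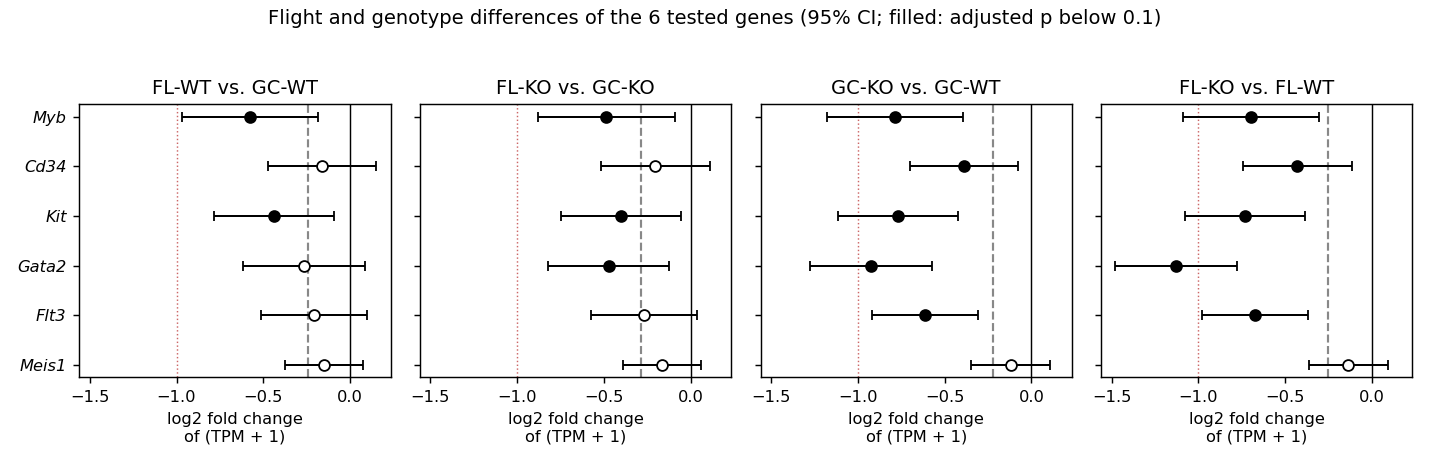
Log2 fold change of (TPM + 1) with its 95% CI (horizontal axes) for the 6 tested genes (rows) in the 4 comparisons (panels). Filled points have an adjusted p below 0.1, the dotted line marks a fold change of 2 and the dashed line the median of all 12373 tested genes; Gata2 in FL-KO vs. FL-WT is the only point beyond the dotted line, at -1.13.

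The effect of flight in wild-type mice was addressed by FL-WT vs. GC-WT. No member was a lower DEG, against 0.938% of all tested genes, and 2 of 6 had an unadjusted p below 0.05, against 41.7%. By adjusted p alone 2 of the 6 tested genes were lower, against 39.0% of all. Myb was at -0.58 on the log2 scale (SE 0.19, adjusted p = 0.0278) and Kit at -0.44 (SE 0.17, adjusted p = 0.0506). Gata2 had -0.27, Flt3 -0.21, Cd34 -0.16 and Meis1 -0.15, with adjusted p-values between 0.226 and 0.417. The median of the 6 was -0.24, as was the median of all genes. No member had groups without overlap, against 2.34% of the genes detected in at least 1 library.

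In knockout mice the corresponding comparison was FL-KO vs. GC-KO. No member was a lower DEG, against 2.13% of all tested genes, and 3 of 6 had an unadjusted p below 0.05, against 52.2%. By adjusted p alone 3 of the 6 were lower, against 53.1% of all. Myb was at -0.49 on the log2 scale (SE 0.19, adjusted p = 0.0438), Gata2 at -0.47 (SE 0.17, adjusted p = 0.0298) and Kit at -0.40 (SE 0.17, adjusted p = 0.0554). Flt3 had -0.27, Cd34 -0.20 and Meis1 -0.16, with adjusted p-values between 0.137 and 0.271. The median of the 6 was -0.34, and relative to all genes it was -0.05. No member had groups without overlap, against 8.87% of the genes detected in at least 1 library. In neither flight comparison did the share of members lower by adjusted p exceed that of all genes. In the other direction no member was a higher DEG in any of the 4 comparisons, against 0.0647% of all tested genes after flight in wild-type mice and 0.0% in knockout mice, 0.129% with the knockout on the ground and 0.097% with the knockout after flight.

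Whether flight acted differently in the 2 genotypes was tested by the interaction of flight and genotype, the flight difference in knockout mice minus that in wild-type mice. None of the 6 tested genes was called, against 0.0162% of all tested genes lower and 0.0% higher, and none had an unadjusted p below 0.05. The largest was that of Gata2, at -0.21 (95% CI -0.70 to 0.29, adjusted p = 0.99995), and the one farthest in the other direction that of Myb, at 0.09 (95% CI -0.47 to 0.64, adjusted p = 0.99995). Intervals that reach to -0.70 for Gata2 and to 0.64 for Myb do not show that flight acted alike in both genotypes.

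The size of these differences depended on how the libraries were scaled. With median-of-ratios scaling of the TPM, which brings the median change of all genes to between 0.00 and 0.03, the genotype differences of 4 genes remained below an adjusted p of 0.1 on the ground and after flight. Gata2 was then at -0.67 on the ground (adjusted p = 0.000412) and -0.94 after flight (adjusted p = 1.63e-06). In scaled TPM it lay between 1.75 and 3.29 in GC-WT mice and 0.976 and 1.77 in GC-KO mice, and between 1.78 and 3.34 in FL-WT mice and 0.645 and 1.19 in FL-KO mice, so the genotypes were separate after flight and overlapped at the edge on the ground. Kit had -0.50 (adjusted p = 0.00128) and -0.48 (adjusted p = 0.000964), Flt3 -0.39 (adjusted p = 0.00763) and -0.47 (adjusted p = 0.0013), and Myb -0.46 (adjusted p = 0.000975) and -0.32 (adjusted p = 0.00826). Cd34 did not pass with this scaling, at -0.11 in both comparisons (adjusted p = 0.236 and 0.222), and Meis1 turned to 0.05 and 0.06. The flight differences were smaller still. In FL-WT vs. GC-WT only Kit, at -0.14, and Myb, at -0.21, stayed below 0, and neither passed (adjusted p = 0.364 and 0.126), while Gata2, Flt3, Meis1 and Cd34 lay between 0.01 and 0.15. In FL-KO vs. GC-KO Gata2 was at -0.26 (adjusted p = 0.104), Kit at -0.13 (adjusted p = 0.409) and Myb at -0.07 (adjusted p = 0.617).

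The members differ in the GC content and length of their transcripts, and a correction for both moved them unequally. Gata2 transcripts have the highest GC content of the 10 genes, 59.0%, those of Meis1 the lowest, 45.3%, and those of Kit and Myb 47.1% and 45.7%. With the trend of each library on GC content and length removed, Gata2 was at -0.35 on the ground (adjusted p = 0.0015) and -0.34 after flight (adjusted p = 0.001), against -0.92 and -1.13 in the TPM as deposited. Kit had -0.48 and -0.43 and Myb -0.55 and -0.45, all with adjusted p-values of at most 0.0023. Both genes were nearer to their median-of-ratios values than to those of the TPM as deposited. Flt3 had -0.15 (adjusted p = 0.155) and -0.18 (adjusted p = 0.0895). Meis1 turned to 0.14 (adjusted p = 0.058) and 0.12 (adjusted p = 0.0889), and in the flight comparisons to 0.19 (adjusted p = 0.0226) in wild-type and 0.17 (adjusted p = 0.0364) in knockout mice, all past the threshold on p and towards higher values. Without the 5 small RNAs the values moved the other way on the ground, and Gata2 in GC-KO vs. GC-WT became a DEG at -1.19. With this scaling Hlf and Hoxa9 also exceeded 1 TPM in at least 1 library and were tested. With the knockout Hlf was at -0.35 (adjusted p = 0.00449) on the ground and -0.30 (adjusted p = 0.0168) after flight. Hoxa9 was at -0.31 (adjusted p = 0.0335) and 0.02 (adjusted p = 0.933). The plot of fold changes by scaling shows these values side by side.

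**Figure D3:**
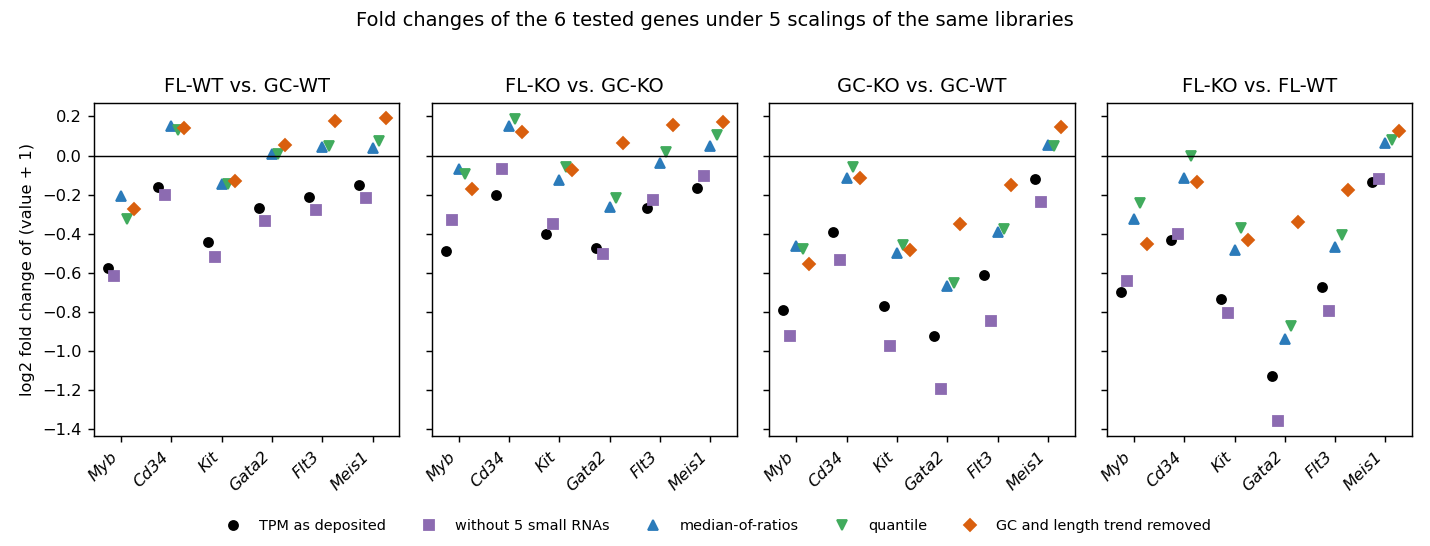
Log2 fold change (vertical axis) of the 6 tested genes (horizontal axis) in the 4 comparisons (panels), with the TPM as deposited and under 4 other scalings of the same libraries. Kit, Gata2, Flt3 and Myb stay below 0 in both genotype comparisons under all 5, between -1.36 and -0.15, whereas Gata2, Flt3, Cd34 and Meis1 change sign in FL-WT vs. GC-WT.

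Ratios of 2 genes within a library do not depend on a factor common to the library, such as a median-of-ratios factor, but they do depend on a correction by GC content and length. With that trend removed, the log2 fold changes of Cd34 and Gata2 were -0.12 and -0.35 on the ground and -0.14 and -0.34 after flight, closer together than the -0.39 and -0.92 and the -0.43 and -1.13 of the TPM as deposited. The pairs of genes shown were chosen after the values were seen and were not tested. The ratio of Cd34 to Gata2 lay between 1.14 and 1.80 in GC-WT mice (1.51 ± 0.284, SD, n = 6), between 1.26 and 2.58 in FL-WT mice (1.73 ± 0.487), between 2.34 and 3.4 in GC-KO mice (2.81 ± 0.370) and between 3.26 and 6.10 in FL-KO mice (4.66 ± 1.13). The genotypes did not overlap on the ground or after flight. The ratio of Gata2 to Meis1 was 2.94 ± 0.608 in GC-WT mice, 2.78 ± 0.428 in FL-WT mice, 1.37 ± 0.521 in GC-KO mice and 0.856 ± 0.147 in FL-KO mice, again without overlap of the genotypes on the ground or after flight. The ratio of Kit to Meis1 was 3.78 ± 0.902, 3.06 ± 0.170, 2.19 ± 0.677 and 1.74 ± 0.293 in the same order of groups. Kit and Myb kept a closer ratio, 0.182 ± 0.0297 and 0.187 ± 0.0218 in wild-type ground and flight mice, and 0.158 ± 0.0168 and 0.147 ± 0.0253 in knockout ground and flight mice, with overlap between all groups. A ratio shows that 2 genes changed unequally, and not which of them changed.

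**Figure D4:**
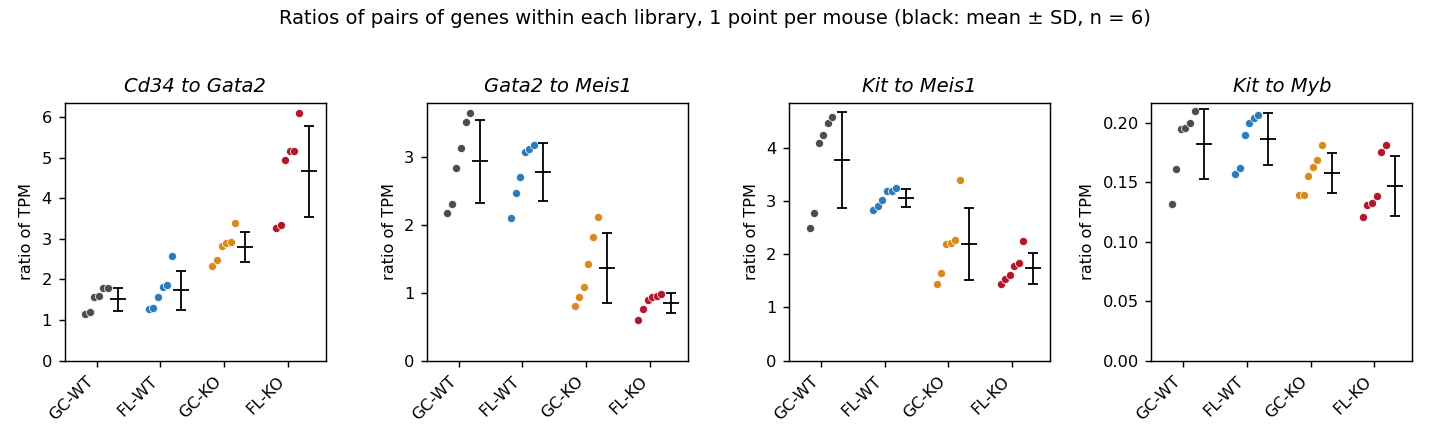
Ratio of the TPM of 2 genes within each library (vertical axes, from 0), for 4 pairs of genes (panels), with a point for each mouse and the mean ± SD of 6 mice in black. Cd34 to Gata2 separates the genotypes, at 1.14 to 2.58 in wild-type and 2.34 to 6.10 in knockout mice with no overlap within ground or flight, while Kit to Myb overlaps between all 4 groups.

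Within a group the same mice were often high or low for several of the genes. FL-WT mouse 07 had the highest value of its group for 7 of the 10 genes and a summed level of 46.3 TPM, next to 20.4 TPM in FL-WT mouse 05. GC-KO mouse 11 was likewise highest for 7 genes, with a summed 35.6 TPM, and FL-KO mouse 11 for 6 genes, with 20.3 TPM. GC-WT mouse 10 was the lowest of its group for 7 genes, with 29.7 TPM. Leaving out GC-WT mouse 10 or GC-KO mouse 11 brought Gata2 in GC-KO vs. GC-WT to -1.01 or -1.03, past the fold change of 2, so that 1 member instead of 0 was called there.

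Only Myb was high enough, at a mean of at least 5 TPM, for its profile over the 24 mice to be set against other genes. Of 5024 genes at that level the nearest were Ewsr1, which encodes an RNA-binding protein, and Ncor1, which encodes a nuclear receptor corepressor. Their standardised values differed from those of Myb by a root mean square of 0.361 and 0.369 SD over 24 mice. Ewsr1 had means of 38.9 ± 9.20 and 22.9 ± 6.71 TPM in wild-type and knockout ground mice, and 26.7 ± 8.34 and 13.6 ± 2.62 TPM in wild-type and knockout flight mice. Among all 12372 other tested genes Kit ranked 180 in nearness to Myb, Gata2 1420, Flt3 3333, Cd34 3433 and Meis1 10169.

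Downstream of KIT and FLT3, 17 adaptors, kinases, phosphatases and STAT genes were examined. The values of these and of the other lists are given for the TPM as deposited only. All 17 were tested, and with the knockout 5 were lower DEGs on the ground and 9 after flight, against 3.04% and 8.36% of all tested genes. None was a DEG in either flight comparison, against 0.938% and 2.13% lower of all in wild-type and knockout mice. There 6 and 14 of the 17 had an unadjusted p below 0.05 by limma, against 41.7% and 52.2% of all tested genes. Inpp5d, which encodes the inositol phosphatase SHIP1, had 19.5 ± 3.93 TPM in GC-WT and 8.10 ± 3.04 TPM in GC-KO mice (log2 fold change -1.21, adjusted p = 0.000411) and 14.5 ± 6.13 TPM in FL-WT and 4.46 ± 0.891 TPM in FL-KO mice (-1.43, adjusted p = 7.46e-06). Pik3cd, a catalytic subunit of PI3 kinase in leukocytes, had log2 fold changes of -1.25 and -1.76 in the same comparisons and Stat3 of -1.10 and -1.41. Cbl, which encodes a ubiquitin ligase of activated receptors, was at -1.20 on the ground, and Sh2b3, the adaptor LNK that restrains cytokine receptor signalling, at -1.55 after flight. The list's median was -0.64 on the ground and -1.01 after flight, next to -0.69 for the 6 tested members in both. These genes are active in most marrow cells, including mature ones.

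For the other lists, DEG counts stand against 0.938% and 2.13% of all tested genes lower after flight in wild-type and knockout mice and 3.04% and 8.36% lower with the knockout on the ground and after flight, and counts by adjusted p alone against 39.0%, 53.1%, 42.9% and 47.2% in the same order. Of 20 further stem cell genes 12 were tested, and Cd93 and Adgrg1, surface proteins of stem cells and other marrow cells, were lower DEGs in GC-KO vs. GC-WT, at -1.12 each (adjusted p = 0.000407 and 0.000542). Adgrg1 was also the 1 lower DEG of the 12 in FL-KO vs. FL-WT, at -1.29 (adjusted p = 2.98e-05), about the share of all genes. By adjusted p alone 5 of the 12 were lower in each genotype comparison, no more than the share of all genes. After flight 6 and 8 were lower in wild-type and knockout mice. The list's median was -0.11 and -0.15 in the genotype comparisons, 0.11 and 0.10 above that of all genes, unlike the -0.69 of the members. It was -0.31 and -0.34 in the flight comparisons of wild-type and knockout mice. Of 12 early progenitor genes 10 were tested and 0 were DEGs in any comparison by limma, with 7 lower for the knockout on the ground and 6 after flight, and 4 and 3 after flight in wild-type and knockout mice, by adjusted p alone and equally by unadjusted p under 0.05. Its flight counts are about or below the share of all genes, and its median log2 fold change was -0.33 and -0.13 after flight in wild-type and knockout mice and -0.52 and -0.45 with the knockout on the ground and after flight. Of 16 transcription factors and cofactors shared with several lineages, 1 was a lower DEG after flight in wild-type and 2 in knockout mice, and with the knockout 0 were on the ground and 3 after flight. Zfpm1, the GATA cofactor FOG1, was the DEG of the wild-type flight comparison at -1.18 (adjusted p = 0.000429), and Zfpm1 at -1.94 and Tal1 at -1.20 those of the knockout flight comparison. Zfpm1, Spi1 and Cebpa were those of FL-KO vs. FL-WT, at -1.75, -1.30 and -1.20. Spi1 and Cebpa encode the myeloid factors PU.1 and C/EBPα.

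The other HOXA genes were, like Hoxa9, not above 1 TPM in any mouse. Of 11 further Hoxa, Meis and Pbx-class genes only Pbx2, Pbx3 and Pknox1 were tested, and 0 were DEGs by limma. By adjusted p alone, and equally by unadjusted p under 0.05, 2 and 3 of these 3 were lower after flight in wild-type and knockout mice, and 2 and 3 with the knockout on the ground and after flight. Of 9 ligands and niche factors 7 were tested and 0 were DEGs, with 2, 6, 1 and 1 lower by adjusted p alone, and equally by unadjusted p under 0.05, in the same order. Except for the 6 in knockout mice after flight, these ligand counts lie below the shares of all genes. Kitl, the ligand of KIT, had a log2 fold change of 0.04 (95% CI -0.26 to 0.35) with the knockout on the ground and -0.14 (95% CI -0.44 to 0.17) after flight, and one of -0.22 (95% CI -0.52 to 0.09) after flight in wild-type and -0.40 (95% CI -0.70 to -0.09, adjusted p = 0.0352) in knockout mice. Flt3l, the ligand of FLT3, had -0.32 (95% CI -0.62 to -0.01, adjusted p = 0.0988) and -0.24 (adjusted p = 0.222) with the knockout, and -0.23 (adjusted p = 0.234) and -0.15 (adjusted p = 0.405) after flight. Both were named after their values were seen.

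**Figure D5:**
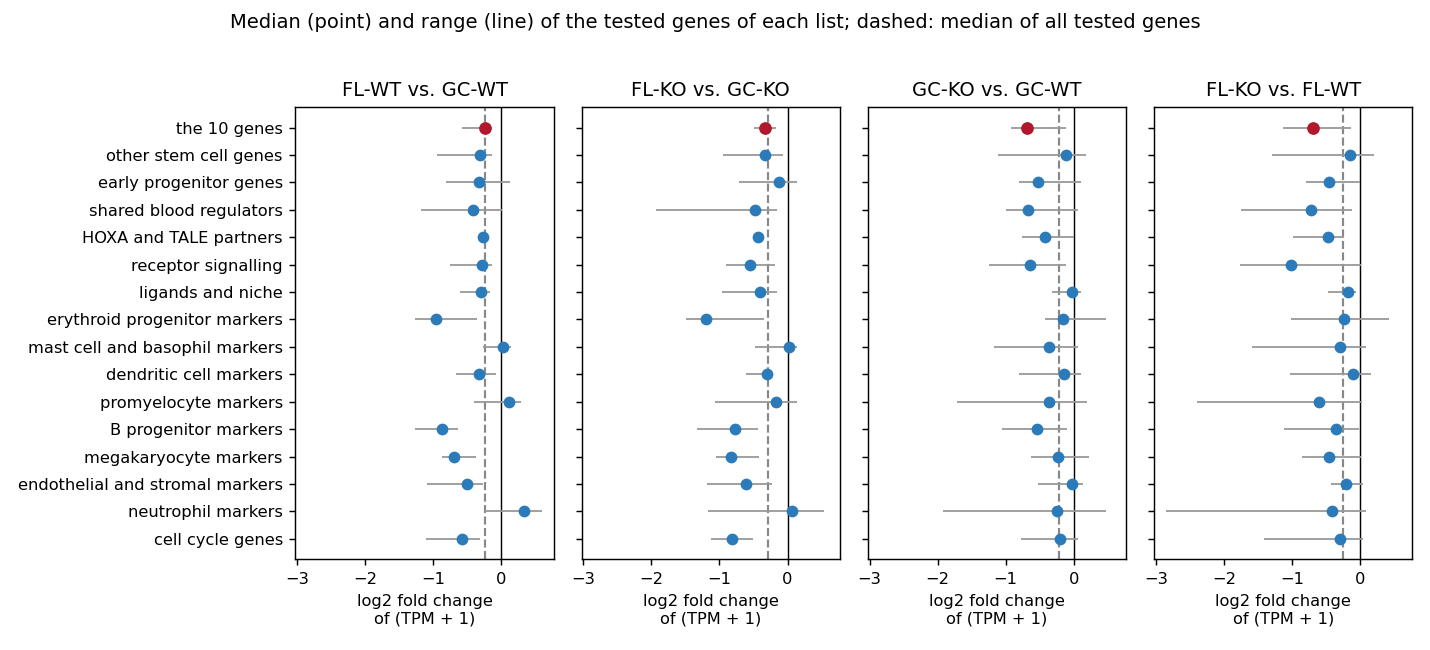
Median log2 fold change of (TPM + 1) (points) and range (lines) of the tested genes of the 10 members and of 15 other lists (rows) in the 4 comparisons (panels), with the median of all tested genes dashed. In the genotype comparisons the members lie at -0.69 and the shared blood regulators at -0.67 and -0.71, while the receptor signalling genes lie at -0.64 on the ground and -1.01 after flight. In the flight comparisons the members, at -0.24 and -0.34, lie close to the median of all genes, while the erythroid markers lie at -0.96 and -1.20.

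Markers of other marrow cells that carry some of the 10 genes moved with them in part, and their share in the results was not tested. The 10 mast cell and basophil markers, one of which is Gata2 itself, summed to 143 to 188 TPM in GC-WT mice, 129 to 229 TPM in FL-WT mice, 78.4 to 140 TPM in GC-KO mice and 77.3 to 116 TPM in FL-KO mice, so the genotypes did not overlap on the ground or after flight. Of the 8 tested, with the knockout 2 were lower DEGs on the ground and 3 after flight, the latter including Gata2 itself. In either flight comparison 0 were. The list's median log2 fold change was -0.36 with the knockout on the ground and -0.30 after flight. Relative to all genes it was -0.14 and -0.05. Hdc, which encodes the enzyme that makes histamine, was lower at -1.17 and -1.59, and the basophil protease gene Prss34 at -1.07 and -1.41. In GC-WT and GC-KO mice Prss34 had means of 57.9 and 28.2 TPM and Hdc of 36.6 and 15.9 TPM. The mean sum of the list was 165 and 101 TPM there. By contrast, Ms4a2 and Fcer1a, which encode subunits of the IgE receptor and were named after their values were seen, had log2 fold changes of 0.02 and 0.04 on the ground and 0.09 and 0.02 after flight. Tpsb2, a tryptase gene of mast cells, was listed at 0 in all GC-WT and GC-KO mice, and it and Cma1 were not tested.

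For the dendritic cell markers, which bear on Flt3, the summed level was 134 to 198 TPM in GC-WT, 104 to 181 TPM in FL-WT, 124 to 169 TPM in GC-KO and 85.5 to 119 TPM in FL-KO mice. Of 8 tested, Irf8 alone was a lower DEG, in FL-KO vs. FL-WT at -1.03 (adjusted p = 7.91e-05), and 0, 0 and 0 were called in the other comparisons. The endothelial and stromal markers, which bear on Cd34 and Procr, summed to 38.8 to 83.1 TPM in GC-WT, 22.6 to 56.4 TPM in FL-WT, 40.2 to 72.0 TPM in GC-KO and 15.6 to 57.3 TPM in FL-KO mice. Of 5 tested, Col1a1 was the DEG in both flight comparisons, at -1.09 and -1.18, and 0 were called in either genotype comparison.

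Myb is shared with several dividing progenitors. Of 7 promyelocyte markers, 0 and 1 were lower DEGs after flight in wild-type and knockout mice, and 1 and 3 with the knockout on the ground and after flight. Mpo, the myeloperoxidase gene of granulocyte progenitors, had 259 ± 79.6 and 85.2 ± 53.7 TPM in wild-type and knockout ground mice and 201 ± 91.6 and 35.5 ± 8.63 TPM in wild-type and knockout flight mice. In the same order of comparisons 5, 7, 0 and 1 of 10 erythroid progenitor markers, 2, 1, 1 and 1 of 10 B progenitor markers, 0, 2, 0 and 0 of 10 megakaryocyte markers, 0, 1, 2 and 2 of 10 neutrophil markers and 1, 4, 0 and 2 of 10 cell cycle genes were lower DEGs, against 0.938%, 2.13%, 3.04% and 8.36% of all tested genes, so that 1 of 10 in FL-KO vs. FL-WT is about the share of all genes. No gene of these 15 lists was a higher DEG in any comparison. Ermap and Aqp1, erythrocyte membrane proteins, were at -1.27 and -1.20 after flight in wild-type mice, and Klf1, the erythroid Krüppel-like factor, at -1.50 in knockout mice and at -1.02 in FL-KO vs. FL-WT. Among the B progenitor markers Vpreb3 was at -1.28 and -1.33 after flight in wild-type and knockout mice, Rag1, the recombinase, at -1.05 with the knockout on the ground, and Cd79a at -1.12 with the knockout after flight. The megakaryocyte markers Gp1bb and Ppbp were at -1.05 and -1.03 after flight in knockout mice. The neutrophil granule genes Mmp9 and Ltf were at -1.92 and -1.62 with the knockout on the ground and -2.85 and -2.33 after flight. The neutrophil list as a whole moved less than these 2 genes. By adjusted p alone 4 of its 10 genes were lower and 2 higher with the knockout on the ground. With the knockout after flight 7 were lower and 0 higher. The shares of all tested genes lower were 42.9% and 47.2%. The median log2 fold change of the neutrophil list was 0.33 and 0.06 after flight in wild-type and knockout mice. With the knockout it was -0.25 on the ground and -0.40 after flight. The mean sum of the 10 neutrophil markers, which are of unequal level, was 40463 TPM in GC-WT, 56331 TPM in FL-WT, 49768 TPM in GC-KO and 55944 TPM in FL-KO mice. The cell cycle genes summed to 446 to 660 TPM in GC-WT, 227 to 460 TPM in FL-WT, 376 to 577 TPM in GC-KO and 199 to 350 TPM in FL-KO mice, with overlap of the genotypes. Single genes of this list still moved with genotype: Mcm5 and Mcm2, which encode subunits of the replicative helicase, were at -1.41 (10.5 against 30.3 TPM) and -1.32 (6.37 against 17.6 TPM) in FL-KO vs. FL-WT, beyond the -1.13 of Gata2. Mki67 was at -1.10 and -1.12 after flight in wild-type and knockout mice. The part of these cells in the levels of Myb was not tested.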

How the data were processed

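RNA-seq was performed on bone marrow cells of 24 mice, a library per mouse, grouped by the labels' genotype and treatment. Per the methods and the submitters' processing notes, the authors prepared MGIEasy directional libraries, used STAR 2.6.1 to map reads to mm10 (GRCm38) and RSEM 1.3.1 for TPM. The annotation release is not given in the sources used here. The deposited table holds TPM per gene, with the same sum in every library. As TPM keeps no depth, the precision of low values is unknown.

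From these TPM values, genes above 1 TPM in at least 1 library were tested with limma 3.58.1 (R 4.3.3) after a log2(TPM + 1) transformation, fitting the 4 group means over all 24 libraries together and Benjamini-Hochberg adjustment over 12373 genes. DEGs had an adjusted p below 0.1 and a fold change of at least 2, the thresholds of the study's methods. The fit was tested on simulated data. Single genes were also compared with a permutation test on rank sums (exact, two-sided) over all 924 splits of 12 mice (scipy 1.17.1). Figures used matplotlib 3.10.9. Gene positions, overlaps, GC content and length came from GENCODE M21, in which 54723 of 54752 gene IDs matched, and promoter sequences from RefSeq (GRCm38.p6).

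The members and the 15 other gene lists were chosen with earlier results of these data known. The text names all 10 members, Nfe2l2, and from each list DEGs whose mean reached 2 TPM in a compared group, at most the 4 largest per list and comparison, not all of which are printed. For members averaging at least 5 TPM it also names the 2 genes nearest in profile, by root mean square difference of standardised log2(TPM + 1). Genes named otherwise are marked in the text. Alternatives were another pseudocount, filters, scalings, variance prior, thresholds and samples in the fit, a block for mouse number, and the omission of single libraries. Mouse numbers are shared by FL-WT and GC-WT and by FL-KO and GC-KO mice, and do not pair the genotypes. FL-WT vs. GC-WT and GC-KO vs. GC-WT share the GC-WT mice, and likewise each other pair of a flight and a genotype comparison shares a group.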

Additional observations from a re-analysis of the deposited data

Results flagged for a closer look

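For each of the 10 genes, the highest and the lowest mouse of each of the 4 groups was examined for a gap to its nearest neighbour that was large against the range of the 6 mice. Of 40 groups examined, 2 had such a mouse, and chance alone gives about 1 in 20 groups. Gata2 in FL-KO mouse 11 was at 1.07 TPM, where the other 5 FL-KO mice lay between 0.52 and 0.70 TPM, so the gap was 0.673 of the group's range. This mouse was still below the lowest FL-WT mouse. Mecom in FL-WT mouse 07 was at 0.27 TPM, where the other 5 FL-WT mice lay between 0.02 and 0.08 TPM, a gap of 0.76 of the range. The same mouse was the highest of its group for 7 of the 10 genes.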

How the results depend on the processing

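The number of members called lower depended on the fold change required and on the scaling. Without a minimum fold change it was 2 and 3 after flight in wild-type and knockout mice, and 5 and 5 for the knockout on the ground and after flight. For the knockout on the ground it was 1 with a pseudocount of 0.1 and 1 without the 5 small RNAs, where Hlf and Hoxa9 were also tested and not called. For the knockout after flight it was 3 with a pseudocount of 0.1, which added Kit at -1.05 and Flt3 at -1.11. It was 0 there with median-of-ratios scaling, quantile normalisation or the GC content and length trend removed. Leaving out 1 mouse at a time gave 0 to 1 for the knockout on the ground (1 without GC-WT mouse 10 or GC-KO mouse 11), and every time 1 for the knockout after flight and 0 in the flight comparisons and the interaction. Dropping the filter on TPM moved the members' median relative to all genes to -0.19 and -0.28 in the flight comparisons and -0.68 and -0.67 in the genotype comparisons, since the low genes then tested have changes near 0. In all genes, DEGs in FL-WT vs. GC-WT were 116 lower and 8 higher with the TPM as deposited and 15 lower and 22 higher with median-of-ratios scaling, 264 and 0 against 22 and 8 in knockout mice, and for the knockout 376 and 16 against 70 and 30 on the ground and 1034 and 12 against 424 and 26 after flight. With the GC content and length trend removed, DEGs were 22 lower and 10 higher after flight in wild-type and 18 and 5 in knockout mice. For the knockout they were then 45 lower and 22 higher on the ground and 184 and 22 after flight. The cause of these shifts was not tested.

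Several log2 fold changes turned sign with the scaling. They are given for median-of-ratios scaling, quantile normalisation and removal of the GC content and length trend, in this order. In FL-WT vs. GC-WT Gata2 was at 0.0094, 0.0088 and 0.054, Cd34 at 0.15, 0.13 and 0.14, Meis1 at 0.040, 0.073 and 0.19, and Flt3 at 0.041, 0.049 and 0.18. In knockout mice after flight Cd34 was at 0.15, 0.19 and 0.12, Meis1 at 0.049, 0.11 and 0.17, Flt3 at 0.018 and 0.15 with the last 2, and Gata2 at 0.065 with the last. Meis1 was at 0.054, 0.046 and 0.14 for the knockout on the ground and at 0.064, 0.080 and 0.12 after flight. In the interaction, where the intervals span 0, Cd34 was at 0.00076 and 0.057 with the first 2 and 0.13 without the small RNAs, Meis1 at 0.0098, 0.034 and 0.11 likewise, Flt3 at 0.050 without the small RNAs, Gata2 at 0.011 with the trend removed and Kit at -0.055 with a pseudocount of 0.1. With 1 mouse left out the interaction ranged from -0.11 to 0.057 for Cd34, -0.15 to 0.043 for Flt3, -0.036 to 0.17 for Kit, -0.074 to 0.053 for Meis1 and -0.018 to 0.22 for Myb.

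The mouse numbers shared by flight and ground mice were not shown to pair them: over 12 pairs the correlation of deviations from the group means ran from -0.03 to 0.27, it was above 0.1 in 7, and in 3 pairs both mice correlated best with their own number. With the number as a replicate block, 0 members were called in either flight comparison or the interaction, as without it, and lower DEGs among all genes numbered 118 instead of 116 in wild-type mice, 265 instead of 264 in knockout mice and 9 instead of 2 in the interaction. The 4 genes at or below 1 TPM are limited by the table's 2 decimals and an unknown depth.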
